A study of Danio rerio with 3 samples.

Results

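The respiratory chain of mitochondria is built from subunits of 2 origins, and the transcripts of both were followed here through tumour and non-tumour livers of zebrafish. The genes were taken by name: every gene listed in all 3 libraries whose symbol starts with mt-, ndufa, ndufb, ndufc, ndufs, ndufv, sdh, uqcr, cox4, cox5, cox6, cox7, cox8 or atp5. The rule found 110 of the 11233 genes that the libraries share, of which 13 are encoded in the mitochondrial genome and 97 in the nucleus. A further pair met the name rule without being listed in every library and was left out, ndufa4l2a, listed in CreLox alone, and sdhda, not listed in no HCC. The symbols of 97 of the 110 members were found in RefSeq's zebrafish gene table.

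Complexes I to IV of the inner mitochondrial membrane pass electrons from NADH and succinate to oxygen and pump protons, and complex V, the ATP synthase, uses the proton gradient to make ATP. Complex II is encoded in the nucleus alone, while complexes I, III, IV and V each join subunits made inside the mitochondrion to subunits imported from the cytosol. The mitochondrial transcripts are cut from long shared precursors, whereas each nuclear subunit has a promoter of its own, so the sets are made by separate machineries. Hepatocytes are rich in mitochondria, and β-catenin, the Wnt pathway protein activated in these fish, is a driver of human hepatocellular carcinoma (HCC).

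Transcripts were counted in single cells of 1 liver per group, from fish 6 months of age that the study's methods describe as male. HepABC (HCC) came from an untreated Tg(fabp10a:pt-β-cat) fish, in which the hepatocyte promoter fabp10a drives an activated β-catenin throughout life, and which also carried a fluorescent Wnt reporter. CreLox (HCC) came from a fish with 2 transgenes, fabp10a:CreERT2 and fabp10a:flox-pt-β-cat, treated with 10 µM 4-hydroxytamoxifen from day 3 to day 6. Its β-catenin is switched on in hepatocytes by Cre, which the drug activates. In a reporter line the study also found Cre switching without the drug, in a minority of larval and most adult hepatocytes. The no HCC library came from a fish with the flox-pt-β-cat transgene alone and the same treatment. The flox line goes back to 1 founder, and without Cre the floxed transgene of no HCC is not switched on.

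Cells were compared in 7 populations set by their number of unique molecular identifiers (UMIs, each standing for 1 captured transcript). Deep cells held at least 10000 UMIs, and numbered 1938 in HepABC, 186 in CreLox and 213 in no HCC. In CreLox alone, the 1792 cells under 5000 UMIs, which made up most of that library, formed another population. Leukocytes were cells under 5000 UMIs with a UMI of c1qb, a macrophage gene, or of ccl38.6, a chemokine gene used here as a lymphocyte marker, and numbered 292, 404 and 343. Of the shallow CreLox cells, 404 were these leukocytes. Levels are summed UMIs of a gene or set per 1000000 UMIs of the population (counts, CPM), counted from the 3′ end and not divided by gene length, so a gene is compared with itself between populations. With 1 library per group the differences have no replicate check, no test between groups was possible, and the 95% intervals cover counting error only.

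The libraries held 2866, 2112 and 1077 cells with medians of 16336, 1712 and 1773 UMIs, and shared 1 to 8 cell barcodes per pair. Every cell of every population had a fabp10a UMI, so hepatocyte RNA was present in all droplets. All 14 hepatocyte markers were found in each population of deep cells, where they summed to 183444 CPM in HepABC, 189540 in CreLox and 270775 in no HCC. In the leukocytes the same markers summed to 44812, 50702 and 78920 CPM, or 24.4%, 26.8% and 29.1% of the level in deep cells of that library. Between groups of deep cells, the 4 cholangiocyte markers found summed to 1954 CPM in HepABC and 1890 CPM in CreLox, against 230.2 CPM in no HCC, and the 4 erythrocyte markers found to 0.597, 1.02 and 1454 CPM. Of the cholangiocyte markers, epcam was near 0 in HepABC, CreLox and no HCC, at 0.666, 0.812 and 0.283 CPM. The rest of the sum was anxa4, lgals2b and s100a10b, which the study lists as raised in a cluster of mainly CreLox hepatocytes. The sum is therefore no measure of cholangiocyte RNA. The 9 lymphocyte markers found summed to 5.88, 27.8 and 4.81 CPM in deep cells of HepABC, CreLox and no HCC. Markers at 0 were cd4-1 and nkl.4 in HepABC, lck, zap70, cd8a and il2rb in CreLox, and il2rb, zap70, cd4-1 and nkl.4 in no HCC. The part of these differences in the results below was not tested.

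The mitochondrially encoded transcripts were lower in the deep cells of both HCC libraries than in those of no HCC, while the nuclear transcripts differed less. The 13 mt- genes summed to 64751 CPM in HepABC, 61251 CPM in CreLox and 88144 CPM in no HCC. The ratio to no HCC was 0.735 (95% interval 0.732 to 0.737) for HepABC and 0.695 (0.691 to 0.698) for CreLox. The 97 nuclear members summed to 20250, 24291 and 22823 CPM in the same order. Their ratio to no HCC was 0.887 (0.881 to 0.894) for HepABC and 1.06 (1.05 to 1.07) for CreLox, the latter turning to 0.768 under TMM factors, a scaling by the bulk of genes in place of total UMIs. For HepABC the nuclear ratio under TMM factors stayed below 1, at 0.743. The choice of scale matters because the median gene was itself higher in both HCC libraries, by 0.48 and 0.52 on the log2 scale with CPM and by 0.22 and 0.05 with TMM factors.

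The number of mt- UMIs per nuclear chain UMI does not depend on that choice, though it depended on depth. It was 3.86 (3.83 to 3.89) in deep no HCC cells, 3.20 (3.19 to 3.21) in deep HepABC cells and 2.52 (2.505 to 2.539) in deep CreLox cells. In deep cells of 20000 to 23019 UMIs the difference of HepABC from no HCC was not seen, at 3.06 (3.04 to 3.08) against 3.05 (3.002 to 3.09), and CreLox was at 2.91 (2.84 to 2.98) over 18 cells. In cells of 10000 to under 20000 UMIs the values were 3.80, 3.11 and 4.18 in HepABC, CreLox and no HCC. In the shallow CreLox cells the number was 0.903 (0.893 to 0.912), the lowest of the 7 populations. Leukocytes held 4.04 (3.95 to 4.13), 1.90 (1.86 to 1.94) and 3.38 (3.30 to 3.46) in HepABC, CreLox and no HCC. By marker, cells with c1qb and no ccl38.6 UMI had 3.77, 2.17 and 4.55 in that order of libraries, and cells with ccl38.6 and no c1qb UMI had 4.77, 1.63 and 2.47. HepABC thus lay above no HCC in the ccl38.6 cells and below it in the c1qb cells, as among all deep cells. The pooled leukocytes joined these classes in unequal parts, with 192 and 80 such cells in HepABC, 152 and 233 in CreLox and 116 and 210 in no HCC. Other leukocyte markers also differed between libraries, as given with the leukocytes below.

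Within each library the mt- share varied widely between cells and with depth, whereas the nuclear share was narrow. In deep cells the median cell gave 5.94% of its UMIs to mt- genes in HepABC, 5.77% in CreLox and 8.46% in no HCC, and 1.99%, 2.35% and 2.23% to the nuclear members. The 90th percentile of the mt- share was 2.81, 3.29 and 2.64 times the 10th percentile in those populations, against 1.40, 1.69 and 1.47 times for the nuclear share. The highest mt- share of a cell was 19.98% in HepABC, 19.97% in no HCC and 16.96% in CreLox, and the authors had removed cells with outlying mitochondrial shares library by library before deposit. By the study's counts, far more cells were flagged for a high mitochondrial share in HepABC and CreLox than in no HCC. After that step the study describes stricter cutoffs on UMI and gene counts. By its counts each library lost further cells before deposit, and no HCC lost the largest share. The part of these removals in the mt- differences was not tested, and removed cells cannot be brought back by a further limit. With all cells above 15% left out, the mt- ratios to no HCC were 0.762 for HepABC and 0.740 for CreLox.

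The mt- share differed with depth, and the libraries differed in depth. The relation did not run one way. In HepABC the median mt- share was 7.31%, 4.77% and 5.02% in the 3 windows below 5000 UMIs, from the shallowest up, and 13.1% in the 391 cells of 5000 to under 10000 UMIs. It then came to 6.99% in the 894 cells of 10000 to under 20000, 5.17% in the 957 cells of 20000 to under 40000 and 5.87% in the 87 deeper cells. In no HCC the medians were 3.32%, 3.15% and 4.58% below 5000 UMIs, then 10.96%, 9.22% and 6.43% over 71, 167 and 46 cells, and no cell there exceeded 23019 UMIs, while deep HepABC cells reached 70958. CreLox had medians of 7.97%, 5.595% and 5.42% in the windows from 10000 UMIs up. The fall across 20000 UMIs was shared by all libraries, while HepABC was higher again in its deepest window. CreLox differed at 5000 to under 10000 UMIs, with a median of 0.741% and a 90th percentile of 14.9%, so that low and high cells occurred side by side.

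Cells within the same limits of depth, chosen after seeing the data, were therefore compared. In cells of 10000 to under 20000 UMIs, with medians of 15896, 14900 and 15377 UMIs, the mt- set ratio to no HCC was 0.799 (0.796 to 0.803) for HepABC and 0.805 (0.798 to 0.812) for CreLox. In cells of 20000 to 23019 UMIs, with medians of 21414.5, 21538 and 20950 UMIs, it was 0.857 (0.850 to 0.864) over 270 HepABC cells. For CreLox it was 1.03 (1.01 to 1.04) in that window, above 1, although only 18 CreLox cells stood against 46 of no HCC. The nuclear ratios changed little, at 0.878 and 0.855 for HepABC and 1.08 and 1.08 for CreLox in the lower and the upper window. The lower mt- level of deep HepABC cells was thus seen in both windows with a smaller size, and that of deep CreLox cells in the lower window alone.

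**Figure D1:**
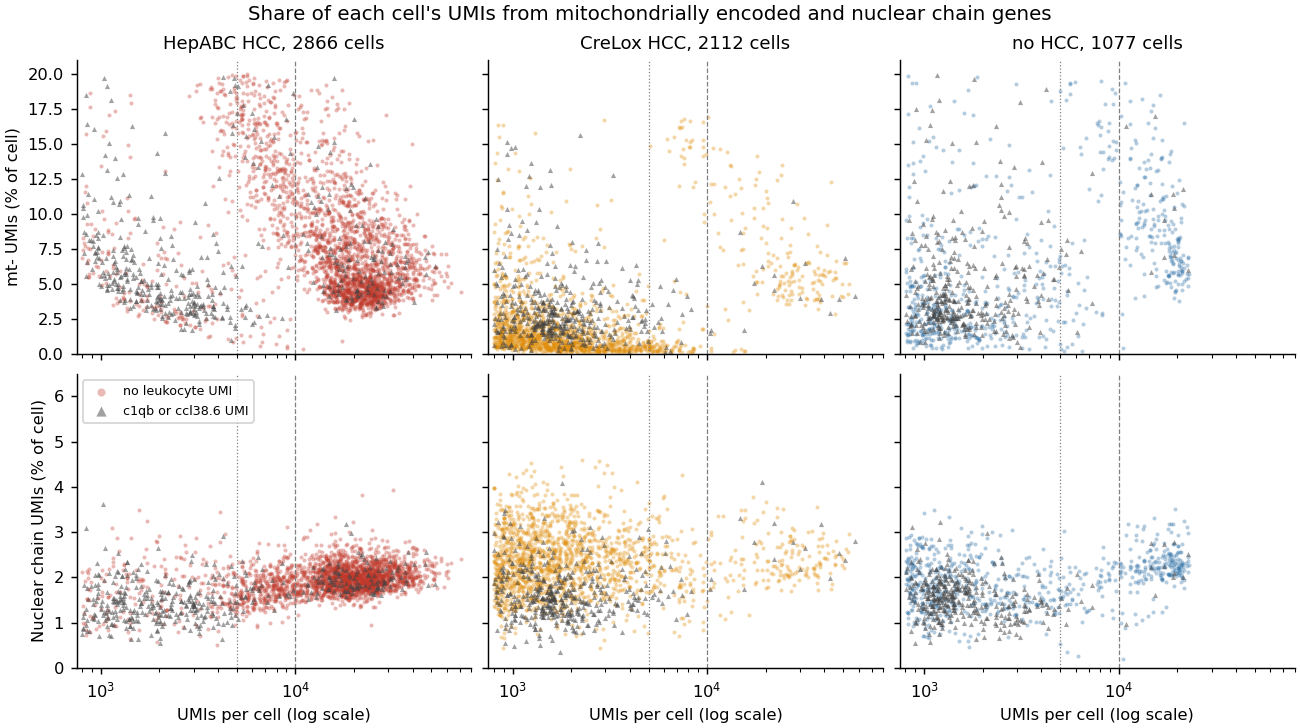
Percent of each cell's UMIs from mt- genes (top) and nuclear chain genes (bottom) against UMIs per cell on a log scale, 1 point per cell, by library; dark triangles are cells with a c1qb or ccl38.6 UMI, and vertical lines mark 5000 and 10000 UMIs. The mt- share falls with depth among the deeper HepABC and no HCC cells and ends at 19.98% and 19.97% there and at 16.96% in CreLox, where a band of cells below 1% runs from the shallowest cells past 5000 UMIs. The nuclear share is narrower than the mt- share in each library.

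All 13 mt- genes were below their no HCC level in the deep cells of each HCC library, with ratios of 0.245 to 0.885 in HepABC and 0.444 to 0.809 in CreLox. TMM factors scale every gene of a comparison alike and lowered the ratios in both comparisons, so they could not change these directions. In the depth windows the direction was kept in part. At 10000 to under 20000 UMIs 13 of 13 were below 1 for HepABC and 12 of 13 for CreLox, and at 20000 to 23019 UMIs 11 of 13 for HepABC but 5 of 13 for CreLox, where the median ratio was 1.04. Past 2-fold lower in HepABC were 4 of 13, mt-co1, mt-nd6, mt-atp8 and mt-nd4l, against 8.09% of the 9401 genes compared, and in CreLox mt-nd6 alone, against 2.82% of 6394. The members of a complex did not move by equal amounts, and the core subunits of cytochrome c oxidase (complex IV) differed most plainly among the abundant transcripts.

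The oxidase transcript mt-co1, for the catalytic subunit that reduces oxygen, was at 6243 CPM in HepABC, 7497 CPM in CreLox and 14372 CPM in no HCC. It was thus 0.434 times no HCC in HepABC (0.430 to 0.439) and 0.522 times in CreLox (0.515 to 0.529). Its neighbours in the same enzyme, mt-co2 and mt-co3, were at 0.885 and 0.854 times no HCC in HepABC and at 0.713 and 0.762 times in CreLox. Of all mt- UMIs of deep cells, mt-co1 made up 9.64% in HepABC, 12.2% in CreLox and 16.3% in no HCC, and mt-co2 33.5%, 28.6% and 27.8%. These shares are free of the scaling by total UMIs. In the depth windows mt-co1 stayed low in HepABC, at 0.468 and 0.481 times no HCC, while mt-co2 was at 0.972 in the lower window and turned to 1.05 in the upper.

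Among the complex I subunits, which form the proton-pumping membrane arm, mt-nd3 was at 0.530 times no HCC in HepABC and 0.773 times in CreLox. The ratios of mt-nd1, mt-nd2 and mt-nd4 were nearer to 1, at 0.735, 0.789 and 0.818 times in HepABC and 0.756, 0.752 and 0.703 times in CreLox. The subunit mt-nd5 was at 0.572 and 0.588 times. The lowest ratios of all belonged to mt-nd6, which is transcribed from the opposite strand to the other protein genes, at 8.75 CPM in HepABC, 15.8 CPM in CreLox and 35.7 CPM in no HCC. It rested on 381, 78 and 126 UMIs, and its ratios were 0.245 (0.200 to 0.302) and 0.444 (0.330 to 0.594).

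In complex III, mt-cyb, which encodes cytochrome b, was at 0.661 times no HCC in HepABC and 0.712 times in CreLox. In complex V, mt-atp6, for the proton channel subunit, was at 0.694 and 0.726 times. The small reading frames mt-atp8 and mt-nd4l overlap mt-atp6 and mt-nd4 on shared transcripts, so reads cannot be told apart cleanly between them, and their 109 to 656 UMIs in deep cells are uncertain.

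**Figure D2:**
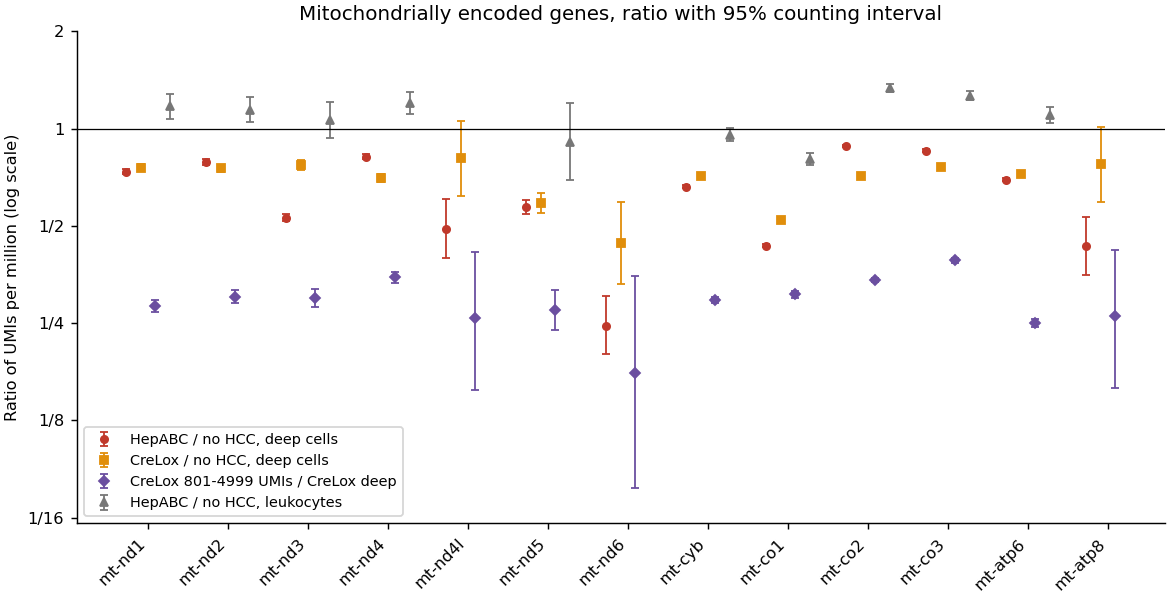
Ratio of CPM for each of the 13 mt- genes on a log scale, with 95% counting intervals, for deep HepABC and deep CreLox cells over deep no HCC cells, shallow over deep CreLox cells, and HepABC over no HCC leukocytes (10 genes with at least 20 UMIs). All 13 genes lie below 1 in the first 3 comparisons, lowest in the shallow cells at 0.175 to 0.392, while 7 of the 10 lie above 1 in leukocytes.

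The nuclear members of deep HepABC cells split around the no HCC level, with 46 above and 50 below it among the 96 that reached 20 UMIs, and a median ratio of 0.958. The median of all genes compared was 1.39, so the nuclear members lay low relative to other genes. Past 2-fold higher were 4 of 96, against 30.2% of all genes compared, and past 2-fold lower 7 of 96, against 8.09%. With TMM factors, which lowered all ratios of this comparison alike, 15 of 96 were past 2-fold lower. The share of all genes was not computed on that scale. By complex, the structural subunits summed to 0.889 times no HCC for complex I (0.874 to 0.905), 0.873 for complex III (0.850 to 0.896), 0.853 for complex IV (0.842 to 0.864) and 0.898 for complex V (0.888 to 0.909). Complex II, which also serves the tricarboxylic acid cycle, stood apart at 1.24 (1.15 to 1.34), and at 1.04 with TMM factors. Assembly factors and regulators summed to 1.00 (0.968 to 1.04), or 0.841 with TMM factors.

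The 7 members past 2-fold lower in HepABC, a share near that of all genes compared, included the ATP synthase genes atp5mea, atp5md, atp5pf and atp5mc1. These do not stand for the complex, since the 17 nuclear structural subunits of complex V summed to 0.898 times no HCC. The gene atp5mea, 1 of the copies for subunit e of its membrane part, was at 3.12 CPM in HepABC, 79.8 CPM in CreLox and 55.2 CPM in no HCC. Its ratio to no HCC was 0.0566 (0.0451 to 0.0708), the lowest of the nuclear members compared, and it was 0.0515 and 0.0506 in the lower and the upper depth window. The other copy, atp5meb, was level at 487, 391 and 475 CPM, and reads shared by the copies could have been counted for either or neither.

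The gene atp5md, for a small subunit of the same membrane part, was at 97.9 CPM in HepABC, 377 CPM in CreLox and 439 CPM in no HCC, a ratio of 0.223 (0.210 to 0.236). The gene atp5pf, for coupling factor 6 of the stalk, was at 199.97, 431 and 491 CPM, a ratio of 0.407 (0.387 to 0.429). The gene atp5mc1, 1 of the copies for the rotating c-ring, was at 151, 358 and 318 CPM. In all of these HepABC stood alone and low, while CreLox lay near no HCC.

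Of the other low members, cox6c of complex IV was at 202, 333 and 452 CPM, and ndufb11 of complex I at 19.5, 55.2 and 46.2 CPM. The assembly factor gene sdhaf1 was past 2-fold on 18 and 5 UMIs in HepABC and no HCC.

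Higher in HepABC by over 2-fold were cox6a1, cox4i1l and the complex I assembly factor genes ndufaf1 and ndufaf7. The subunit gene cox6a1 was at 285 CPM in HepABC, 255 CPM in CreLox and 84.7 CPM in no HCC, a ratio of 3.37 (3.00 to 3.79) for HepABC and 3.02 (2.66 to 3.43) for CreLox. The subunit 4 copy cox4i1l was at 40.6, 71.5 and 14.2 CPM, with ratios of 2.87 (2.17 to 3.88) and 5.05 (3.75 to 6.93). Both HCC libraries were thus above no HCC for both genes, as they were in both depth windows, where cox6a1 ran from 2.80 to 3.497 times and cox4i1l from 2.55 to 5.51 times. The gene ndufaf7 rested on 61 UMIs against 1, with a ratio of 4.95 (0.855 to 198.6) that the counts do not settle.

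In deep CreLox cells 74 of the 94 nuclear members compared were above their no HCC level, with a median ratio of 1.18 against 1.43 for all genes compared, and under TMM factors 48 of 97 members changed direction. Past 2-fold higher were 5 of 94, against 25.3% of all genes compared, and 0 of 94 were past 2-fold lower, against 2.82%. The complexes summed to 1.12, 1.38, 1.08, 1.03 and 1.06 times no HCC for complexes I to V, and each of these was below 1 with TMM factors, at 0.806, 0.998, 0.780, 0.740 and 0.768. Beside cox4i1l and cox6a1, the genes past 2-fold were cox4i2, ndufaf2 and ndufaf3.

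The third subunit 4 gene, cox4i2, was at 13.2 CPM in CreLox on 65 UMIs, 0.988 CPM in HepABC on 43 UMIs and 1.42 CPM in no HCC on 5 UMIs. The assembly factor gene ndufaf3 was at 74.1 CPM in CreLox, 22.2 CPM in HepABC and 26.9 CPM in no HCC, a ratio of 2.76 (2.19 to 3.49) to no HCC. A c-ring copy, atp5mc3a, followed at 1.88 times (1.69 to 2.10). The lowest ratios in CreLox were those of ndufa3 at 0.717, cox6c at 0.735, ndufc2 at 0.744 and atp5meb at 0.824.

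**Figure D3:**
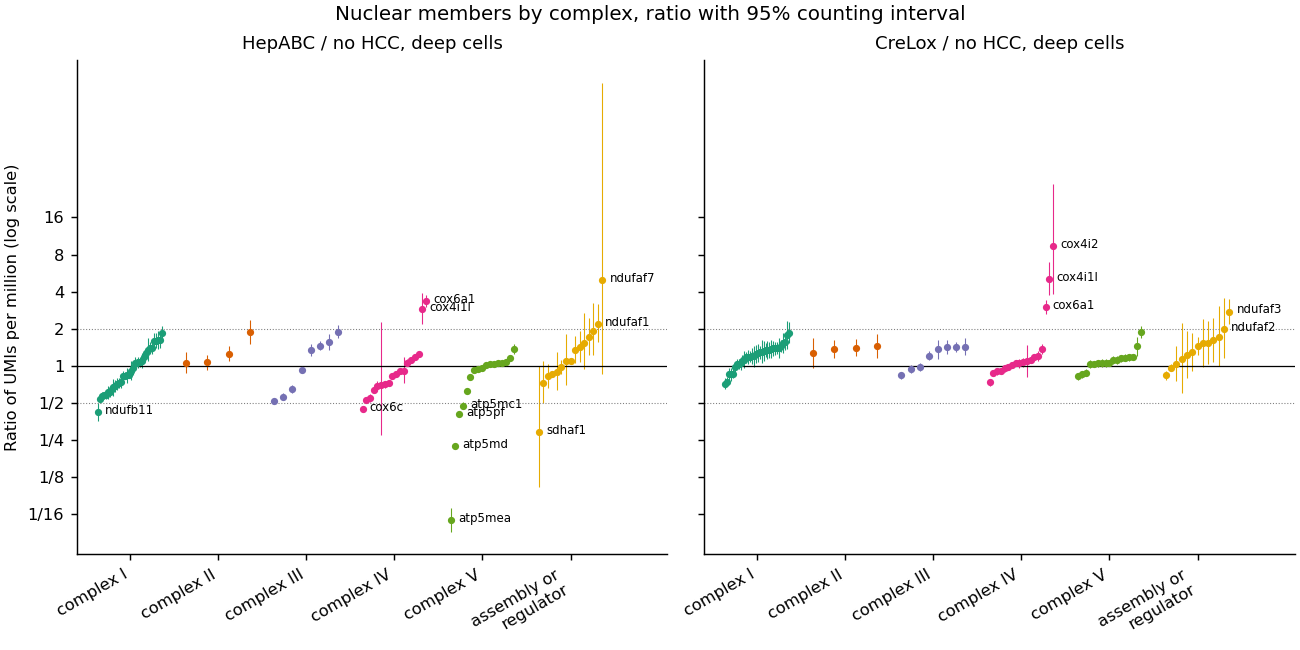
Ratio of CPM in deep cells for the nuclear members with at least 20 UMIs, by complex and sorted within it, on a log scale with 95% counting intervals, for HepABC (left) and CreLox (right) over no HCC; dotted lines mark 2-fold, and members past them are named. The ATP synthase genes atp5mea, atp5md, atp5pf and atp5mc1 fall below the lower line in HepABC alone, and cox6a1 and cox4i1l lie above the upper line in both. Under TMM factors many CreLox members between the lines cross 1.

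Between the HCC libraries the nuclear set was lower in HepABC, at 0.834 times CreLox (0.829 to 0.839) and 0.967 times with TMM factors, and the mt- set was at 1.06 times (1.05 to 1.06). The latter did not keep its direction in the depth windows, at 0.993 (0.985 to 1.00) and 0.834 (0.823 to 0.844). Past 2-fold lower in HepABC were 13 of 96 nuclear members, against 14.9% of all genes compared, and 0 of 96 were past 2-fold higher, against 11.9%. They included the 4 ATP synthase genes above, cox4i2 at 0.0748 times, ndufaf3 at 0.299 times, cox7a2a, cox8b, ndufb2, ndufb7, ndufb11, sdhaf3 and uqcrb. With TMM factors 6 of 96 were past 2-fold lower, without a share of all genes computed on that scale. The largest ratio was that of sdhb, the iron-sulfur subunit gene of complex II, at 1.48 (1.25 to 1.75), and in the lower depth window it was past 2-fold at 2.54 (1.55 to 4.46). In the upper window ndufaf1 and ndufaf6 were past 2-fold at 2.35 (0.897 to 8.73) and 3.53 (0.607 to 142), on 4 and 1 UMIs in CreLox.

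The most uneven population was that of the shallow CreLox cells, in which mt- transcripts were far lower than in deep cells and nuclear ones less so. The mt- set was at 19919 CPM against 61251 CPM in deep cells of the same library, a ratio of 0.325 (0.322 to 0.328). The nuclear set was at 22070 against 24291 CPM, a ratio of 0.909 (0.900 to 0.917), and of 0.590 with TMM factors, under which the mt- ratio was 0.211. All 13 mt- genes were past 2-fold lower, against 7.11% of the 7819 genes compared, from 0.175 for mt-nd6 on 9 UMIs to 0.392 for mt-co3. The complex V pair was lowest in sum at 0.251, then mt-cyb at 0.295, the complex I genes at 0.307 and the oxidase genes at 0.3505. Other markers moved with these cells. The 14 hepatocyte markers summed to 123027 CPM against 189540 CPM in deep cells, with fabp10a at 46457 against 47460 CPM. The apolipoprotein gene apobb.1 was at 342 against 2002 CPM and cp, for ceruloplasmin, at 288 against 912 CPM. Of the 14 markers hpda alone was higher in the shallow cells, at 2381 against 1640 CPM. Markers of macrophages summed to 5658 against 183 CPM, of lymphocytes to 2157 against 27.8 CPM, of erythrocytes to 460 against 1.02 CPM and of endothelium to 123 against 9.14 CPM. Their part in the mt- difference was not tested.

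The low mt- level was also seen without the cells that had leukocyte UMIs. The remaining 1388 shallow cells were at 16579 CPM for the mt- set, and 0.266 times deep cells that also lacked leukocyte UMIs. Their nuclear set was at 23776 CPM, 0.987 times. Among these 1388 cells 605, or 43.6% (exact interval 41.0% to 46.2%), gave at most 1% of their UMIs to mt- genes, a share reached by 7 of 186 deep CreLox cells and by 76 of the 134 CreLox cells of 5000 to under 10000 UMIs, or 56.7% (47.9% to 65.2%). Cells of like depth without leukocyte UMIs in the other libraries reached it in 1 of 245 in HepABC and 39 of 450 in no HCC. Those cells had mt- levels of 103242 CPM in HepABC and 48228 CPM in no HCC, and nuclear levels of 17282 and 17623 CPM. Of the shallow cells of the 3 libraries, those of CreLox thus most often had few mt- UMIs. Within CreLox such cells were more frequent still at 5000 to under 10000 UMIs.

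Among the shallow CreLox cells, the nuclear level and the hepatocyte gene fabp10a were highest where the mt- share was lowest. In the shallow CreLox cells without leukocyte UMIs, cells of up to 1% mt- UMIs had nuclear members at 25495 per 1000000 UMIs outside the mt- genes and fabp10a at 61834 CPM. Cells of 1% to 2% had 24266 and 55461, cells of 2% to 5% had 21761 and 40814, cells of 5% to 10% had 19406 and 35520, and the 25 cells above 10% had 19485 and 31046. The fabp10a values, unlike the nuclear ones, are per total UMIs with the mt- UMIs included. The median depth of these classes was lower from class to class as well, from 1834 to 1025 UMIs. Other cell types were not left out. All shallow CreLox cells held 399 UMIs of endothelial and 1493 of erythrocyte markers, of which the leukocytes among them held 53 and 6. The part of scale, depth and cell types in the order was not tested. Shallow no HCC cells also had their highest values, 19800 and 48274, at up to 1%. Theirs were 17133 and 21668 at 5% to 10% and 18361 and 25923 above 10%. In shallow HepABC and deep CreLox cells the order could be read above 2% alone, where values did not fall steadily from class to class. Their classes of up to 1% and 1% to 2% held only 1 and 7 shallow HepABC cells and 7 and 4 deep CreLox cells. Shallow HepABC cells had nuclear values of 19578, 18186 and 19349 at 2% to 5%, 5% to 10% and above 10%, and deep CreLox cells had 24967, 26558 and 26060.

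Single nuclear members had a median ratio of 0.975 between shallow and deep CreLox cells in CPM, against 1.52 for all genes compared, and under TMM factors 41 of 97 changed direction. Past 2-fold higher were 2 of 94, cox8a and sdhb, against 32.3% of all genes compared, and past 2-fold lower 1 of 94, cox6a2, against 7.11%. With TMM factors 1 was past 2-fold higher and 10 were past 2-fold lower, without shares of all genes computed on that scale. The oxidase subunit gene cox6a2 was at 218 CPM against 514 CPM in deep cells (ratio 0.423, 0.389 to 0.460). It was at 0.465 times when shallow cells with leukocyte UMIs were left out and all deep cells were kept. The gene ndufa4l was next at 593 against 1105 CPM (ratio 0.537). The higher level of cox8a, 3.52 times deep cells, came down to 1.94 times once shallow cells with leukocyte UMIs were left out. In that setting, again against all deep cells, sdhb stayed at 2.04 times and cox4i2 reached 2.03 times.

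Leukocytes held less chain RNA in CPM than deep cells of the same library. The nuclear set was at 14540 CPM in HepABC, 16372 CPM in CreLox and 15033 CPM in no HCC, ratios of 0.718 (0.703 to 0.733), 0.674 (0.662 to 0.687) and 0.659 (0.644 to 0.673). The mt- set was at 58740, 31077 and 50781 CPM, ratios of 0.907 (0.898 to 0.917), 0.507 (0.501 to 0.514) and 0.576 (0.569 to 0.583). TMM factors lowered all of these, the nuclear ones to 0.313, 0.316 and 0.227 and the mt- ones to 0.395, 0.238 and 0.198. Some of this RNA is shared with hepatocytes, since fabp10a was at 34.0%, 39.6% and 31.1% of its deep-cell level in leukocytes, and its part was not tested.

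Between libraries, comparisons of leukocytes that were added after seeing the data gave the mt- set in HepABC at 1.16 times no HCC (1.14 to 1.18) and in CreLox at 0.612 times (0.602 to 0.623). The nuclear set was at 0.967 and 1.09 times, the former turning to 1.03 with TMM factors. Past 2-fold higher in HepABC were 0 of 88 nuclear members, against 13.3% of all genes compared, and past 2-fold lower 4 of 88, atp5mea, cox4i1l, ndufaf3 and sdhaf2, against 14.8%. In CreLox the higher ones were 2 of 91, ndufa7 and ndufaf1, against 6.5%, and the lower one of 91 was cox4i2, against 6.37%. The leukocytes of CreLox were poor in mt- UMIs whichever marker chose them. Cells with c1qb and no ccl38.6 UMI had 54606 CPM in HepABC, 38454 CPM in CreLox and 63344 CPM in no HCC. Cells with ccl38.6 and no c1qb UMI had 71648, 25349 and 39330 CPM. HepABC thus lay below no HCC in the c1qb cells and above it in the ccl38.6 cells. Other markers of the pooled leukocytes differed between HepABC, CreLox and no HCC. The lymphocyte markers ccl36.1 and lck were at 8.02, 2902 and 2298 CPM and at 16.0, 72.2 and 83.0 CPM. Of the lymphocyte markers cd4-1 alone was highest in HepABC, at 97.9, 16.0 and 1.73 CPM, while coro1a was nearer level at 562, 665 and 733 CPM. The macrophage marker grn1 was at 7971, 1212 and 230 CPM. The macrophage markers mpeg1.1, at 642, 407 and 669 CPM, and cd74a, at 21102, 10824 and 21117 CPM, were near level between HepABC and no HCC. The rest of the macrophage markers were higher in HepABC than in no HCC. The libraries may thus differ in the kinds of leukocyte, and the part of this in the mt- levels was not tested.

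Past 2-fold higher in leukocytes than in deep cells were 5 of 95 nuclear members in HepABC, 3 of 94 in CreLox and 6 of 92 in no HCC, against 50.9%, 42.9% and 51.3% of all genes compared. Past 2-fold lower were 4, 9 and 15, against 11.8%, 17.0% and 17.2%. Under TMM factors 83, 82 and 79 were past 2-fold lower. Those factors lowered every ratio of a comparison alike, and the share of all genes was computed in CPM alone. The HepABC share of 50.9% may be too high, since deep cells there held 43540667 UMIs and leukocytes 623120. With the floor of 3 counts, a gene of that library without a leukocyte UMI could be counted as past 2-fold higher. In CreLox and no HCC, nuclear members were thus seldom among the genes higher in leukocytes in CPM. By complex, the complex II subunits were at 1.23 (1.05 to 1.42), 1.099 (0.946 to 1.27) and 1.62 (1.36 to 1.92) times the deep-cell level. The CreLox interval thus held 1. With TMM factors the subunits were below the deep-cell level in every library, at 0.534, 0.515 and 0.557.

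An oxidase subunit with 2 copies, cox8, showed them in opposite order. The gene cox8a was at 284 CPM in HepABC leukocytes, 202 CPM in CreLox leukocytes and 161 CPM in no HCC leukocytes, against 19.2, 22.9 and 20.95 CPM in deep cells. The ratios were 14.8 (12.5 to 17.5), 8.80 (6.85 to 11.3) and 7.67 (5.59 to 10.6), and remained above 2 with TMM factors at 6.46, 4.12 and 2.64. The other copy, cox8b, went the opposite way, at 77.0, 147 and 128 CPM in leukocytes and 122, 266 and 221 CPM in deep cells. Both macrophage and lymphocyte marker cells carried cox8a, with 155 to 304 CPM in cells with c1qb alone and 157 to 177 CPM in cells with ccl38.6 alone.

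Subunit 4 had 3 copies with separate patterns. The main copy cox4i1 was nearly level in CPM, at 0.937, 0.958 and 0.938 times deep cells in the leukocytes of the 3 libraries, and at 0.408, 0.449 and 0.323 times with TMM factors. The copy cox4i1l was at 30.5, 77.6 and 143 CPM in leukocytes of HepABC, CreLox and no HCC. It followed the ccl38.6 cells, with 99.3, 126 and 258 CPM there against 10.8, 17.2 and 13.3 CPM in c1qb cells, the latter on 3 to 5 UMIs each. The copy cox4i2 was at 44.9, 10.7 and 22.5 CPM in leukocytes and leaned to the c1qb cells, with 49.9, 20.6 and 31.0 CPM against 33.1, 2.42 and 16.3 CPM, on 1 to 23 UMIs each. In HepABC, where deep cells had 0.988 CPM, the leukocyte level of cox4i2 was 45.5 times higher.

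The gene ndufa4 had few UMIs in any population. It had 9 UMIs in CreLox leukocytes (12.0 CPM) and 11 in no HCC leukocytes (19.0 CPM), of which 8 and 10 lay in cells with ccl38.6 and no c1qb. In HepABC leukocytes it had 0 of 623120 UMIs, which allows up to 4.81 CPM, and 1 UMI in all deep HepABC cells. Its relative ndufa4l was at 636, 583 and 695 CPM in the leukocytes of HepABC, CreLox and no HCC.

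Among the 3 lowest members compared in leukocytes of every library were cox7a1 and cox5b2, both of complex IV, with cox6a2 lower still in CreLox at 0.283 times deep cells. The gene cox7a1 was at 75.4, 122 and 104 CPM, or 0.299, 0.339 and 0.261 times deep cells. The gene cox5b2 was at 119, 132 and 131 CPM, or 0.344, 0.294 and 0.279 times. On the higher side, sdhb was at 1.98, 2.22 and 3.81 times and atp5if1a, an inhibitor of the ATP synthase in its reverse direction, at 1.78, 1.58 and 2.14 times. With TMM factors sdhb was at 0.864, 1.04 and 1.31 times and atp5if1a below 1 in each library, at 0.774, 0.742 and 0.737.

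A low atp5mea level in HepABC was seen in leukocytes as well, at 8.02 CPM on 5 UMIs against 76.2 CPM in CreLox and 69.2 CPM in no HCC. The gene atp5md was at 101, 207 and 164 CPM and ndufaf3 at 14.4, 50.8 and 48.4 CPM in those leukocytes. For atp5mea and atp5md both populations of the HepABC library were therefore low, with the hepatocyte RNA in leukocytes noted above as a shared component. For ndufaf3 this held in leukocytes alone, since deep HepABC cells were near no HCC and CreLox stood high.

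**Figure D4:**
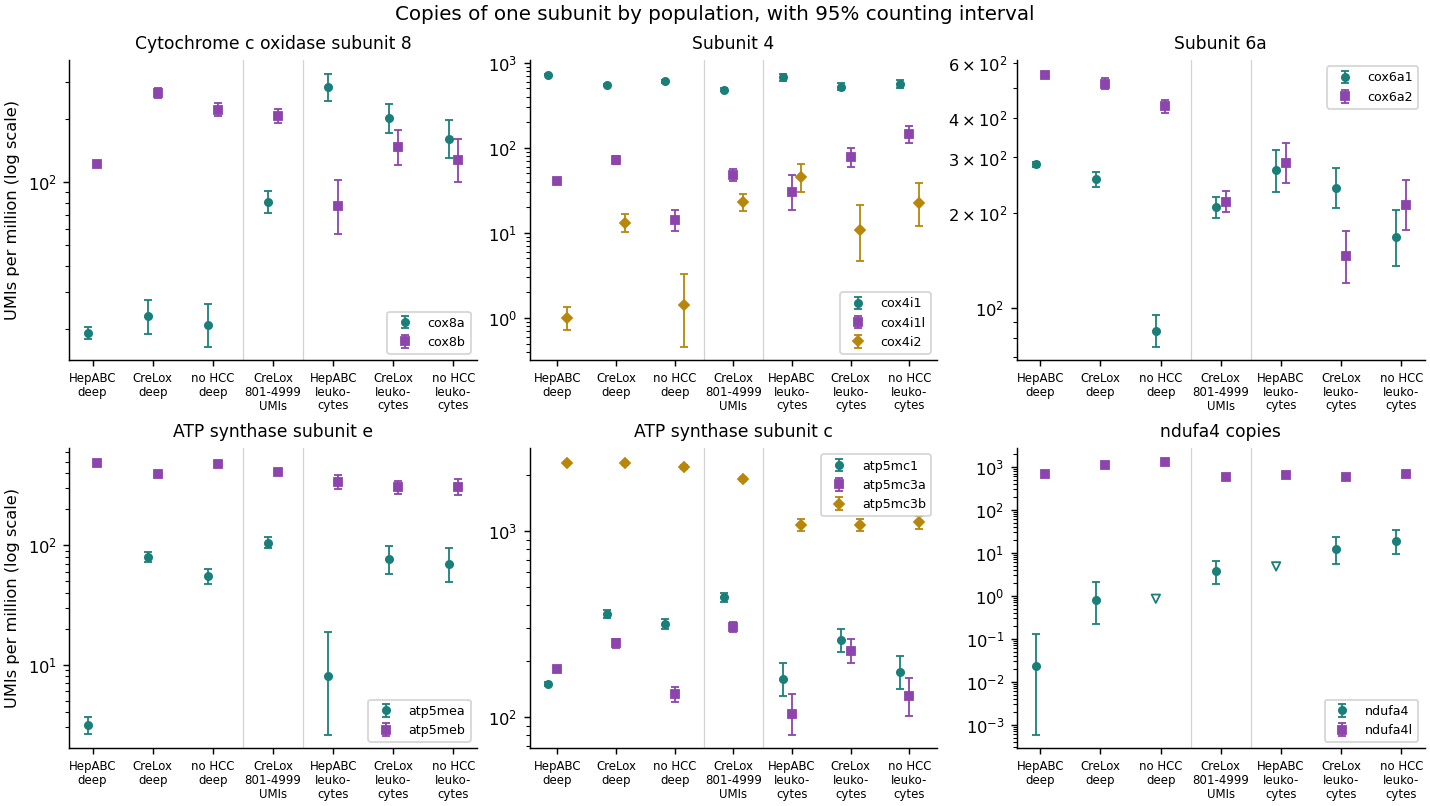
CPM on a log scale, with 95% counting intervals, for copies of 6 subunits in deep cells, shallow CreLox cells and leukocytes; open triangles mark the upper 95% limit where no UMI was found. The copies cox8a and cox8b cross between deep cells and leukocytes, atp5mea is low in HepABC deep cells (3.12 CPM) and leukocytes (8.02 CPM) beside a level atp5meb, and cox6a1 is lowest in no HCC deep cells (84.7 CPM).

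Genes near the chain but outside the name rule were read from lists of known function. Of the 10 electron carriers and chain genes found, 1 was past 2-fold higher and 2 past 2-fold lower in deep HepABC cells over no HCC, against 30.2% and 8.09% of all genes compared. The lower ones were cycsb, for cytochrome c, at 122 against 293 CPM (ratio 0.417, 0.390 to 0.446), and higd1a, for an oxidase-associated protein, at 54.1 against 137 CPM (ratio 0.394, 0.357 to 0.435). In CreLox 1 of 10 was past 2-fold higher and 0 were lower, against 25.3% and 2.82%, with median ratios of 1.22 and 1.203 for the list in HepABC and CreLox.

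The list medians in deep HepABC and CreLox cells were 1.34 and 1.38 times no HCC for the 74 mitochondrial ribosome genes, of which 11 and 13 were past 2-fold higher and 3 and 0 lower. Of all genes compared, 30.2% and 25.3% were higher and 8.09% and 2.82% lower. They were 1.45 and 1.37 for the 13 genes of the tricarboxylic acid cycle, with 1 higher and 0 lower in each. For the 21 import genes they were 1.06 and 1.39, with 2 and 0 higher and 0 lower. Beside the 1.39 and 1.43 of all genes compared, these lists lay near the median gene except import in HepABC.

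For 7 genes of mitochondrial DNA upkeep and transcription found in the files, the medians were 1.54 over 7 and 1.70 over 6 genes compared. The factor gene tfam, which packages mitochondrial DNA and starts its transcription, was at 14.7 CPM in HepABC, 16.5 CPM in CreLox and 9.34 CPM in no HCC, ratios of 1.58 (1.11 to 2.31) and 1.76 (1.16 to 2.73). These ratios were near the median of all genes compared, and in leukocytes tfam was at 38.5 CPM in HepABC and 25.4 CPM in CreLox. Of the carriers, ucp2 was at 18.9, 7.98 and 21.6 times the deep-cell level in leukocytes of HepABC, CreLox and no HCC, and ucp1 at 0.265, 0.380 and 0.311 times.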

How the data were processed

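Single-cell transcripts of dissociated liver were counted in 3 libraries, 1 per group, with 10x Genomics 3′ chemistry. The deposited counts are whole UMIs per gene and cell that the authors made with Cell Ranger 2.2.0 on GRCz11, after which they kept droplets called as cells and removed cells with outlying quality measures, a high mitochondrial share among them, separately in each library. That filter acts on the mt- genes described here, and it flagged far more HepABC and CreLox cells than no HCC cells. The study also describes stricter later cutoffs on UMI and gene counts. By its counts, no HCC lost the largest share of its cells between the filter and the deposit. No cell annotation was used, and no doublets were called in this re-analysis.

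UMIs were summed over the cells of each population and divided by the population's total to give CPM. Levels carry exact Poisson 95% intervals and ratios the exact interval of 2 Poisson counts. Genes with at least 20 UMIs over both populations were compared, and a ratio of 2-fold was counted. Against 0 UMIs a floor of 3 counts was used. The comparisons listed in the closing section were repeated with TMM factors from edgeR 4.0.16 in R 4.3.3, and with the other alternatives given there where these applied. Of those alternatives, the leukocyte comparisons between libraries were repeated with TMM factors alone. The remaining steps used Python 3.11.15, numpy 2.4.6, scipy 1.17.1, pandas 2.3.3 and matplotlib 3.10.9. Ratios, intervals and 2-fold calls alone were tried on simulated Poisson counts, which hold no extra spread between cells or animals.

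Named were all 13 mt- genes. Nuclear members were named from the 4 highest and 4 lowest ratios of each comparison with at least 100 UMIs. Copies of a subunit with a member past 2-fold, and members past 2-fold, were drawn on as well. Not all members that met these rules are printed. Members, lists and populations were chosen with earlier results of these data known. Leukocyte comparisons between libraries, leukocyte classes by marker and depth windows were added after seeing the data. The files held 0 unused columns of sample values. The values of 1 member gene are not reported here, though it stays in the counts and sums.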

Additional observations from a re-analysis of the deposited data

Results flagged for a closer look

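The mt- set and 3 of its complexes differed in opposite directions between HepABC and no HCC in deep cells and in leukocytes, and these differences were not tested. The ratio was 0.735 in deep cells and 1.16 in leukocytes for the whole set, 0.736 and 1.15 for the mt- subunits of complex I, 0.758 and 1.1996 for those of complex IV, and 0.693 and 1.101 for those of complex V. Between HepABC and CreLox the opposite directions were 0.928 in deep cells and 1.54 in leukocytes for the mt- subunit of complex III, and 0.955 and 1.75 for those of complex V. Within leukocytes the direction against no HCC depended on the marker, at 54606 against 63344 CPM in cells with c1qb alone and 71648 against 39330 CPM in cells with ccl38.6 alone. Other leukocyte markers differed between these libraries as well, so the classes may not hold the same kinds of cell, and the part of this was not tested.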

How the results depend on the processing

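The ratios are given in the order HepABC over no HCC, CreLox over no HCC, HepABC over CreLox, shallow over deep CreLox cells, and leukocytes over deep cells in HepABC, CreLox and no HCC. Of 123 alternatives for the set ratios 4 changed direction, 3 of 58 for the mt- set and 1 of 65 for the nuclear set, and 42 stayed within the counting interval of the reported value. With totals that left out the mt- genes, the mt- ratios were 0.716, 0.675, 1.06, 0.311, 0.901, 0.492 and 0.553, and the nuclear ratios 0.865, 1.03, 0.837, 0.870, 0.713, 0.653 and 0.633. With TMM factors, the mt- ratios were 0.615, 0.502, 1.23, 0.211, 0.395, 0.238 and 0.198, and the nuclear ratios 0.743, 0.768, 0.967, 0.590, 0.313, 0.316 and 0.227. As means of per-cell CPM, the mt- ratios were 0.744, 0.713, 1.04, 0.344, 0.917, 0.502 and 0.532, and the nuclear ratios 0.890, 1.07, 0.831, 0.914, 0.723, 0.680 and 0.688. With deep cells taken from 5000 UMIs, the mt- ratios were 0.757, 0.652, 1.16, 0.338, 0.859, 0.527 and 0.562, and the nuclear ratios 0.905, 1.07, 0.845, 0.927, 0.723, 0.688 and 0.677. Without deep and shallow cells that had leukocyte UMIs, the mt- ratios were 0.738, 0.713, 1.03, 0.266, 0.910, 0.498 and 0.581, and the nuclear ratios 0.887, 1.05, 0.841, 0.987, 0.717, 0.680 and 0.658. Without the 5% of cells with the most UMIs, the mt- ratios were 0.723, 0.692, 1.04, 0.328, 0.836, 0.501 and 0.538, and the nuclear ratios 0.889, 1.07, 0.833, 0.915, 0.721, 0.669 and 0.672. Without cells above 15% mt- UMIs, an alternative added after seeing the data, the mt- ratios were 0.762, 0.740, 1.03, 0.319, 0.791, 0.501 and 0.559, and the nuclear ratios 0.869, 1.04, 0.836, 0.910, 0.716, 0.674 and 0.647. Under TMM factors the nuclear ratio of CreLox to no HCC thus changed direction. For the leukocytes, a minimum of 2 marker UMIs gave 0.841, 0.526 and 0.590 for the mt- set and 0.711, 0.638 and 0.642 for the nuclear set. Structural subunits alone gave nuclear ratios of 0.883, 1.06, 0.829, 0.900, 0.712, 0.667 and 0.649. For the first 3 ratios, windows of depth were added after seeing the data. Cells of 10000 to under 20000 UMIs gave 0.799, 0.805 and 0.993 for the mt- set and 0.878, 1.08 and 0.811 for the nuclear set. Cells of 20000 to 23019 UMIs, 18 of them from CreLox, gave 0.857, 1.03 and 0.834 and 0.855, 1.08 and 0.793. The mt- ratio of HepABC to CreLox changed direction in both windows and that of CreLox to no HCC in the upper one, and the cause was not tested.

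Shares of all genes past 2-fold were computed in CPM alone, and counts under the alternatives below have none beside them. In the same order as the ratios above, nuclear members past 2-fold numbered 4, 5, 0, 2, 5, 3 and 6 higher and 7, 0, 13, 1, 4, 9 and 15 lower. With TMM factors they numbered 3, 3, 0, 1, 2, 1 and 2 higher and 15, 0, 6, 10, 83, 82 and 79 lower, with a fold of 1.5 they numbered 15, 14, 0, 5, 9, 5 and 13 and 21, 0, 29, 2, 37, 33 and 39, with no minimum of UMIs 4, 6, 0, 4, 6, 5 and 9 and 7, 1, 14, 1, 4, 9 and 15, and with totals that left out the mt- genes 4, 4, 0, 1, 5, 2 and 5 and 7, 0, 12, 1, 4, 12 and 18. No paired analysis was possible because each group had 1 library, and for the same reason no library could be left out. Depth limited the rarer members: 1 to 9 nuclear members per comparison had fewer than 20 UMIs and were not compared, and the smaller leukocyte and CreLox populations set the widest intervals.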
